A study of Mus musculus with 21 samples.

Results

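The genes described here are those of the Hox clusters of the mouse, followed through testis development. Members were taken by name: every probe set whose gene symbol in the platform's annotation is Hoxa, Hoxb, Hoxc or Hoxd followed by digits alone, which leaves out antisense and other non-coding genes. This gave 48 of the 45101 probe sets on the array, for 33 genes: 9 of cluster A, 9 of cluster B, 7 of cluster C and 8 of cluster D. No measured value entered this choice. Hoxb8 and Hoxd4 were read only by 3 probe sets that name a second Hox gene as well. These 3 probe sets are not among the members. All 48 members were in every test, whereas a filter on low values, tried as an alternative, kept 40 of them, for 29 genes.

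Hox genes encode homeodomain transcription factors that tell cells their position along the body axis. They lie in the clusters A, B, C and D, and a gene's paralogue number gives both its place in the cluster and its relatives in the other clusters. Low-numbered genes, at the anterior end of a cluster, are switched on first and reach furthest towards the head, while high-numbered genes act in the lumbar, sacral and urogenital region and in the limbs. Hox proteins bind DNA together with TALE homeodomain cofactors of the Pbx, Meis and Pknox families, Polycomb and Trithorax group proteins hold the clusters off or on, and retinoic acid and Cdx proteins help to open them.

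Whole testes of wild-type male CD-1 mice, an outbred stock, were profiled on arrays of oligonucleotide probe sets from gestation day (gd) 11, through gd12, gd14, gd16 and gd18, to the second day after birth (pnd2). The 20 testis arrays included 5 at gd11, each of a pool of 2, and 3 at gd12, each of a pool of 5. There were 3 at each later stage, for which the sample labels give no pool size. The series' own design statement gives 3 single animals per stage instead, and the sample labels were followed. All groups were untreated and of the same genotype, and 1 further array held RNA of 8 whole newborns at pnd 0.5. At gd11 and gd12 the spread is therefore that between pools. A value is a fluorescence intensity as deposited. Where a gene's mean at a stage is under 71.6, a limit set at percentile 40 of the testis intensities, it is called near background. Changes are differences of log2(intensity + 22.4) with the standard error (SE) of a limma fit over all arrays and probe sets with 1 gene. A change was called at an adjusted p below 0.05, and on this scale the fold change of a dim gene comes out too small. Some probe sets, marked _s_at, _x_at or _a_at, may match related sequences as well. Each gene is described by its brightest probe set unless another is named, and only changes, not levels, can be set side by side between genes.

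The summed intensity of 7 Sertoli cell markers ran from 1292 to 2649 at gd11, 9589 to 13476 at gd12 and 27267 to 32906 at gd14, and that of 5 fetal Leydig cell markers from 117 to 533, 823 to 3880 and 36040 to 40743. limma called 6 of the 7 Sertoli markers higher at gd12 than at gd11, against 8.10% of all genes. All 5 Leydig markers were called higher at gd14 than at gd12, against 7.90% of all genes. Both sums were low at gd11. Some arrays stood apart from others of their stage. At gd11 the sum of 13 neural markers was 93026 and 53367 in replicates 16 and 17 but 6817, 4707 and 11879 in replicates 18, 19 and 20. Other tissues differed between these arrays as well. The cartilage and sclerotome sum was 3707 and 6437 against 693, 895 and 1356. The mesonephric sum was 3754 and 4867 against 9086, 12573 and 6246. That of interstitial stroma was 7182 and 12720 against 20862, 18013 and 19347, and the smooth muscle and endothelial sums were also lower in replicates 16 and 17. At gd12 the sum of 8 adrenal markers was 5267 in replicate 13 against 1086 and 915 in replicates 14 and 15, that of 6 germ cell markers 8701 against 30780 and 26210, and that of the neural markers 4565, 3333 and 1524. From gd11 to pnd2 limma called 11 of the 13 neural markers lower and none higher. Of 9 markers of mesonephros and ducts 6 were called lower and 1 higher. Over all genes 18.7% were called lower and 18.5% higher. The mesonephric sum ran from 3754 to 12573 at gd11, 4657 to 5907 at gd12 and 3076 to 3556 at gd14. Results that rest on these arrays are given with and without them below, and the part of other tissue in any Hox value was not tested. In whole-organ RNA, fewer cells of a type and less RNA per cell cannot be told apart.

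Most Hox genes were lower at pnd2 than at gd11. Between gd11 and pnd2 limma called 21 of the 33 genes lower and 1 higher. Over all 18193 genes, 18.7% were called lower and 18.5% higher. Counted by probe sets, 30 of the 48 members were called lower and 1 higher, where 16.9% and 16.5% of the 34945 tested probe sets were. The median change of the 33 genes was -2.34 on the log2 scale against -0.04 over all genes. In 20 of the 33 genes every pnd2 array lay below every gd11 array, an arrangement found in 18.3% of all genes, and in none did every pnd2 array lie above (18.3%). By the F-test over the 6 stages 25 of the 33 varied, where 53.7% of all genes did. Of the 33 genes 27 were above background at gd11, 24 at gd12, 18 at gd14, 17 at each of the next 2 stages, and 15 at pnd2. Hoxb7, Hoxb13, Hoxc13, Hoxd12 and Hoxd13 were near background at every stage, and 15 genes were above it at every stage.

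**Figure D1:**
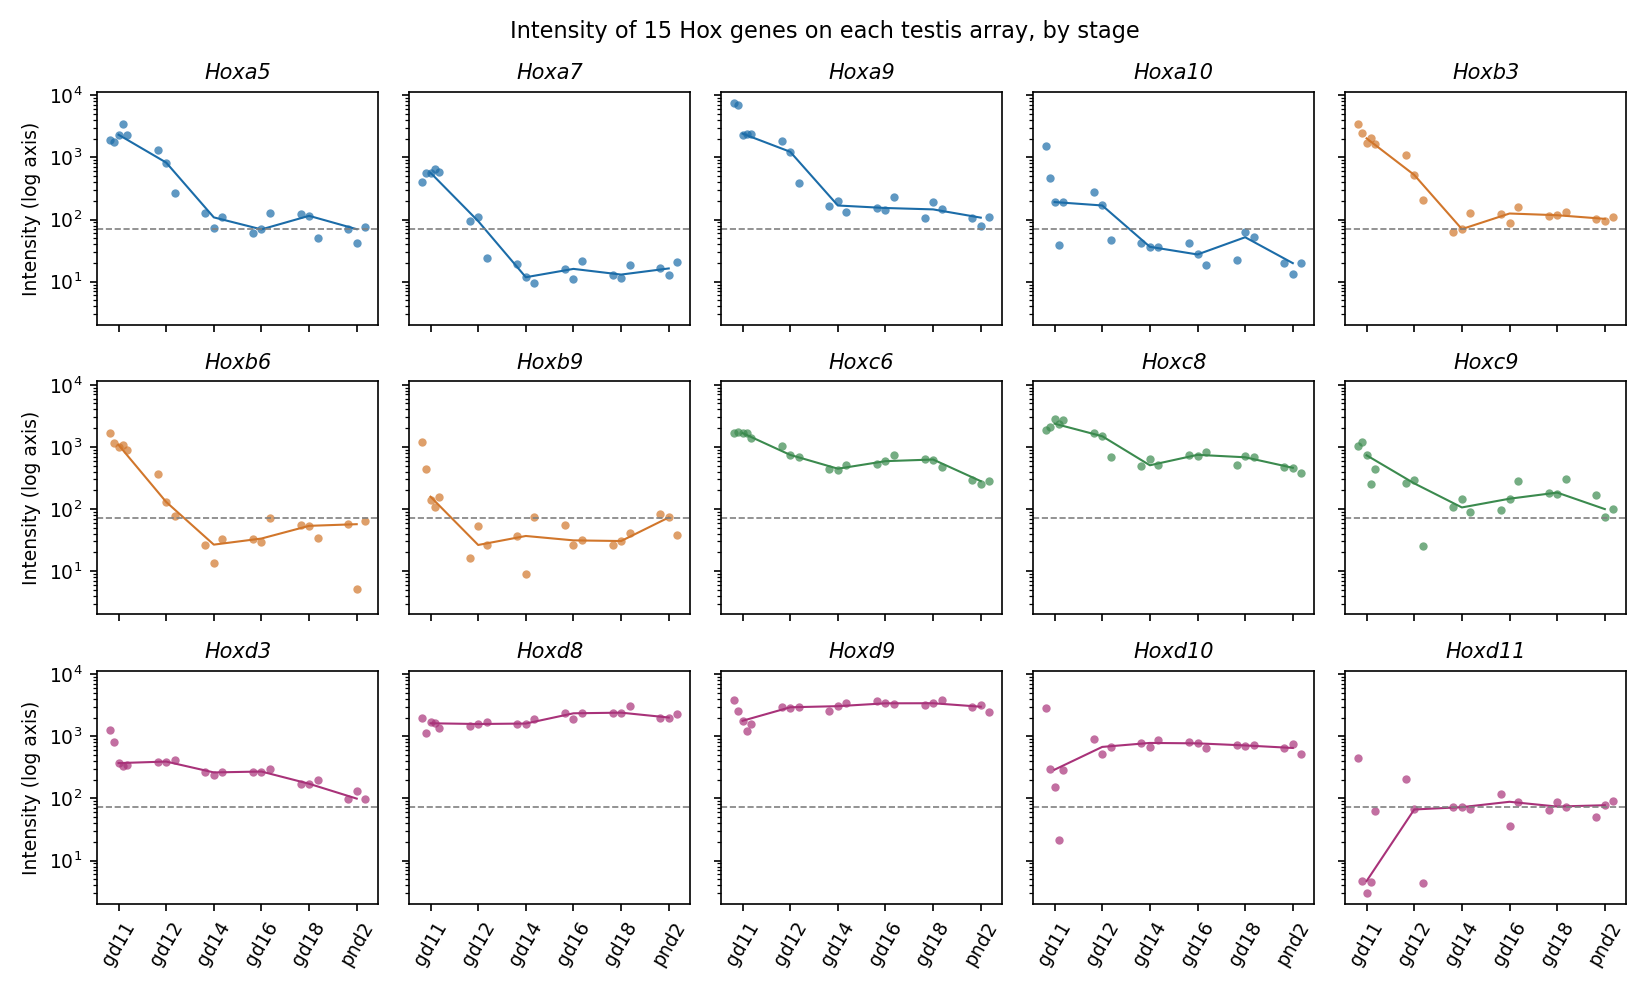
Intensity (log axis) of 15 Hox genes on each of the 20 testis arrays by stage, with points for arrays in replicate order, a line through the stage medians, colours for clusters A (blue), B (orange), C (green) and D (purple), and a dashed line at 71.6, the near-background limit. Genes of clusters A and B such as Hoxa7 and Hoxb6 drop to or below the dashed line by gd14, Hoxc6 and Hoxc8 drop but stay well above it, and Hoxd9 and Hoxd10 keep close to their gd12 level, while Hoxd8 is highest at gd18.

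The clusters differed in how many of their genes moved. Of the 9 genes of cluster A 7 were called lower at pnd2 than at gd11 (median change -3.22), of the 9 of cluster B 6 (median -2.01), of the 7 of cluster C 6 (median -2.40), and of the 8 of cluster D 2 lower and 1 higher (median -0.03). By paralogue number, 9 of the 10 genes numbered 1 to 4 were called lower (median -2.53). Among the 9 genes numbered 5 to 8, 7 were called lower and 1 higher (median -3.88). Among the 14 genes numbered 9 to 13, 5 were called lower and none higher (median -0.57). All 5 of these lay outside cluster D, where the 9 genes numbered 9 to 13 had a median change of -1.80, against 0.50 for the 5 such genes of cluster D. These are counts and medians of small groups and carry no test. Hoxa13, Hoxb13, Hoxc13, Hoxd12 and Hoxd13 were already near background at gd11 (means of 35.6, 8.76, 4.94, 25.5 and 30.2), as was Hoxb7 (23.4). A fall could hardly be seen in them, which limits the comparison between paralogue numbers and between clusters.

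**Figure D2:**
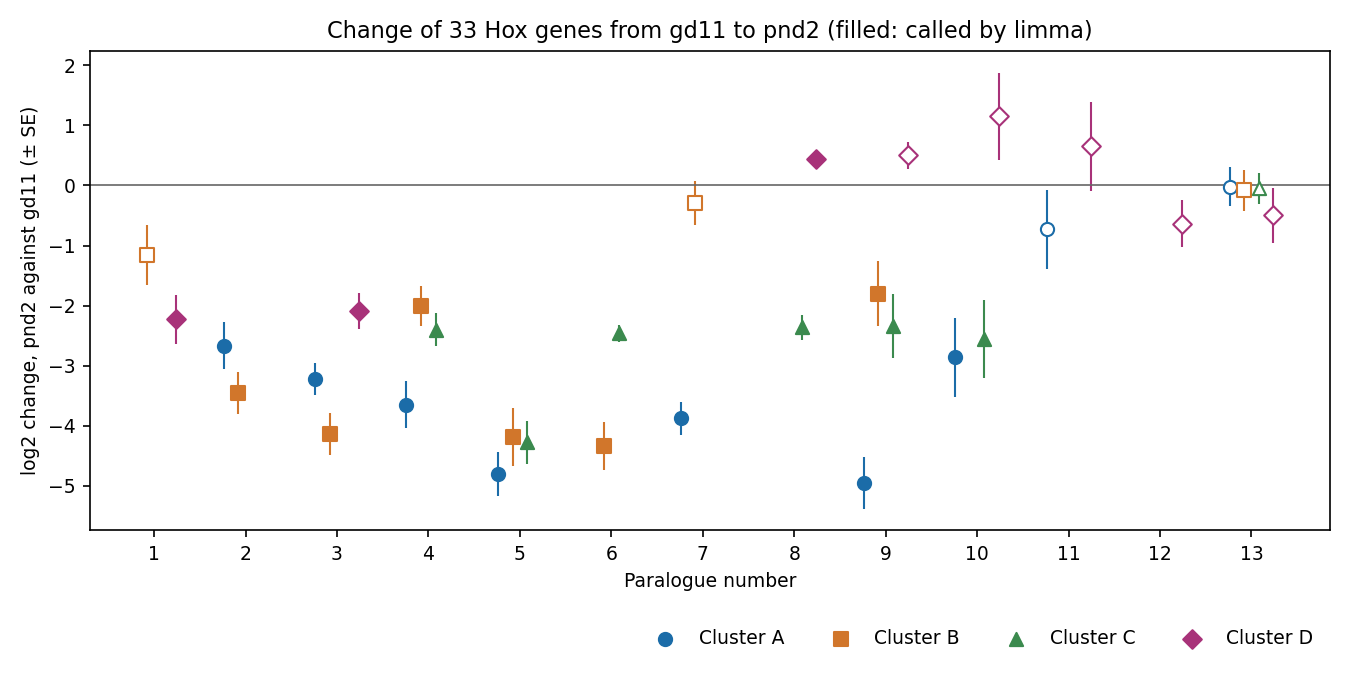
Change on the log2 scale from gd11 to pnd2 (vertical axis, bars ± SE of the limma fit) of the 33 Hox genes by paralogue number (horizontal axis), with colour and shape for the cluster and filled symbols for called changes. Genes numbered 5 lie between -4.19 and -4.80, and among the genes numbered 8 to 11 those of cluster D lie between 0.44 and 1.15 while the others lie between -0.73 and -4.95.

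Among the anterior genes, Hoxb3 (1456229_at), which acts in hindbrain and branchial arch patterning, had the largest F statistic of cluster B. It read 3511, 2435, 1691, 2024 and 1617 in gd11 replicates 16 to 20, 1105, 523 and 209 at gd12, and 62.2, 70.2 and 126 at gd14. Later values were 125, 88.9 and 160 at gd16, 115, 117 and 132 at gd18, and 103, 93.1 and 110 at pnd2. No gd12 array reached the gd11 range and no gd14 array the gd12 range, after which the stages overlapped up to gd18. The gene fell by 2.07 ± 0.35 from gd11 to gd12 (adjusted p = 0.000542) and by 2.31 ± 0.39 from gd12 to gd14 (adjusted p = 0.000698), and by 4.14 ± 0.35 in all by pnd2 (adjusted p = 1.51e-08). A second probe set of Hoxb3 was called lower in the same 3 comparisons.

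Hoxa3 (1427433_s_at), needed for thymus, parathyroid and neck structures, fell in both an early and a late step by this probe set alone. Its gd11 arrays read 820, 530, 514, 549 and 465 and its gd12 arrays 358, 195 and 124. The gd14 arrays read 119, 78.8 and 103, the gd16 arrays 137, 109 and 106, the gd18 arrays 102, 118 and 187, and the pnd2 arrays 49.5, 25.1 and 50.03. The pnd2 arrays lay below all earlier ones. The change was -1.35 ± 0.27 from gd11 to gd12 (adjusted p = 0.00241) and -1.29 ± 0.30 from gd18 to pnd2 (adjusted p = 0.0222). The late fall was not called without gd18 replicate 6 or without pnd2 replicate 2 (adjusted p = 0.121 and 0.106, with 0.00441 to 0.121 over its 17 alternatives). It was also not called with percentile 40 of the intensities as the added constant (adjusted p = 0.0523). Of the 4 probe sets of Hoxa3, 3 were called lower at pnd2 than at gd11, and the one not called (1431392_at) was near background at every stage. From gd11 to gd12 and from gd18 to pnd2 only 1 of the 4, 1427433_s_at, was called. Another (1429398_at) was called lower from gd12 to gd14 instead (-1.07 ± 0.25, adjusted p = 0.00905).

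The other anterior genes of clusters A, B and C, Hoxb1 apart, were also called lower at pnd2 than at gd11. From gd11 to pnd2 Hoxa2 and Hoxb2, which pattern the hindbrain and second arch, fell by 2.67 ± 0.39 and 3.46 ± 0.35, and Hoxa4 fell by 3.65 ± 0.39. Hoxb4, also known for its effect on blood stem cells, fell by 2.01 ± 0.33, from 413 ± 117 (SD, n = 5) to 83.5 ± 13.5 (n = 3). Hoxc4 fell by 2.40 ± 0.27 from 1638 ± 388 but kept 290 ± 58.9 at pnd2. Its lowest stage was gd14, at 197 ± 25.6, and the later rise to 321 ± 24.2 at gd16 was not called in the fit of all stages (0.65 ± 0.30, adjusted p = 0.262). Hoxb1, a hindbrain gene, read 281, 92.7, 6.15, 36.5 and 72.8 at gd11, so 1 array carried its mean, and no comparison called it.

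Cluster D holds 2 anterior members. Hoxd1 (1420573_at), which acts in sensory neuron wiring, read 313, 307, 115, 142 and 57.0 at gd11, 41.6, 8.44 and 19.9 at gd12, and 31.7, 33.5 and 40.2 at gd14. All gd12 arrays were below all gd11 arrays, and the gene fell by 2.05 ± 0.41 (adjusted p = 0.00221), or by 1.47 without gd11 replicates 16 and 17. It then stayed near background, at 55.1, 40.5 and 41.5 at gd16, 15.1, 30.9 and 62.3 at gd18 and 21.4, 2.60 and 31.1 at pnd2. Hoxd3 (1437664_at), a gene of the neck vertebrae, went down late and slowly. Its gd11 arrays read 1258, 796, 371, 333 and 348 and its gd12 arrays 389, 393 and 422, all above the 3 lower gd11 arrays. It then read 267, 241 and 263 at gd14, 271, 268 and 303 at gd16, 173, 168 and 195 at gd18, and 99.5, 132 and 97.0 at pnd2. The ranges of gd14 against gd12, gd18 against gd16 and pnd2 against gd18 did not overlap, yet none of these steps was called (changes of -0.60, -0.59 and -0.62, adjusted p = 0.3, 0.472 and 0.362). Without gd11 replicates 16 and 17 the same 3 changes were called (adjusted p = 0.0113, 0.0336 and 0.0201, ranges over the alternatives 0.0113 to 0.596, 0.0336 to 0.682 and 0.0201 to 0.563). From gd11 to pnd2 Hoxd3 fell by 2.09 ± 0.30 (adjusted p = 1.57e-05). Both probe sets that name Hoxd4 with Hoxd3 were at 999 ± 549 and 887 ± 738 at gd11 and at 249 ± 61.6 and 67.1 ± 10.4 at pnd2.

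Genes of the middle of the clusters, paralogues 5 to 8, had a median change of -3.88 from gd11 to pnd2. Hoxa5 (1448926_at), needed for lung, gut and mammary development, read 1932, 1772, 2320, 3506 and 2330 at gd11 and 1313, 827 and 268 at gd12. Its gd14 arrays stood at 129, 73.2 and 108, with 61.7, 69.4 and 128 at gd16, 122, 115 and 49.6 at gd18 and 70.0, 41.7 and 75.0 at pnd2. The 3 early stages did not overlap and the later ones did. Hoxa5 changed by -1.75 ± 0.37 to gd12 (adjusted p = 0.00349) and by -2.48 ± 0.41 from gd12 to gd14 (adjusted p = 0.000609), the largest fall of the 33 genes in that step. From gd11 to pnd2 the change was -4.80 ± 0.37 (adjusted p = 4.11e-09). Its second probe set (1443803_x_at) was called lower at gd12 and at pnd2, but at 191 ± 24.4 its gd14 arrays overlapped those of gd12 (-0.47 ± 0.29, adjusted p = 0.351).

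Hoxa7 (1449499_at), a gene of thoracic vertebrae, shared with Hoxb6 the largest fall of the 33 genes from gd11 to gd12. The gd11 arrays read 397, 562, 566, 663 and 582, the gd12 arrays 94.2, 109 and 24.4, and the gd14 arrays 19.5, 11.8 and 9.68. Every later array lay between 11.2 and 21.2, near background. The gene had the largest F statistic of cluster A, and changed by -2.67 ± 0.28 to gd12 (adjusted p = 3.32e-06). The step to gd14 (-1.32 ± 0.31, adjusted p = 0.00928) lost its call when gd12 replicate 13 (adjusted p = 0.051) or replicate 14 (adjusted p = 0.0584) was left out, among 17 alternatives with adjusted p from 0.000321 to 0.671. In gd11 replicates 16 and 17, the arrays that stood apart in neural and other tissue markers, Hoxa7 held its lowest gd11 value and its second lowest.

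Hoxb6 (1451660_a_at), of the same paralogue region, went down over the same stages. It read 1682, 1171, 997, 1076 and 899 at gd11, 371, 130 and 78.4 at gd12 and 26.7, 13.3 and 32.7 at gd14. Later it stayed between 5.15 and 72.2, at 33.5, 29.7 and 72.2 at gd16, 56.1, 53.6 and 33.9 at gd18 and 57.0, 5.15 and 63.9 at pnd2. The changes were -2.67 ± 0.40 to gd12 (adjusted p = 0.000154) and -1.99 ± 0.44 from gd12 to gd14 (adjusted p = 0.00626). Its neighbour Hoxb5 fell by 2.33 ± 0.48 and 2.00 ± 0.54 in the same steps, to 11.7 ± 7.45 at gd14. Hoxb7 was near background at every stage, at 15.4 to 42.0, and no comparison called it. The probe set that names Hoxb8 with Hoxb7 went from 447 ± 296 at gd11 to 24.3 ± 20.1 at gd14.

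In cluster C the middle genes fell and yet stayed above background by their brightest probe sets. Hoxc5 (1439885_at) read 1324, 3010, 3322, 6593 and 2620 at gd11, with its lowest value in replicate 16. It read 1672, 691 and 538 at gd12. Later stages gave 262, 241 and 285 at gd14, 229, 223 and 291 at gd16, 136, 223 and 170 at gd18, and 105, 160 and 137 at pnd2. The gd12 range overlapped that of gd11, and the gd14 range lay below that of gd12. Hoxc5 changed by -1.77 ± 0.36 to gd12 (adjusted p = 0.00276) and by -1.63 ± 0.40 to gd14 (adjusted p = 0.0131). The first change was larger, -2.14, when gd11 replicates 16 and 17 were left out. Without gd12 replicate 13 the second change was -1.15 and not called (adjusted p = 0.0857, with 0.00227 to 0.388 over 17 alternatives).

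Hoxc6 (1427362_x_at), a thoracic gene, varied little between arrays of a stage. It read 1668, 1727, 1699, 1644 and 1375 at gd11, 1044, 743 and 691 at gd12, 446, 428 and 510 at gd14, 532, 590 and 741 at gd16, 645, 626 and 477 at gd18, and 293, 257 and 281 at pnd2. The ranges of gd11, gd12 and gd14 were separate, and that of pnd2 lay below all others. Hoxc6 fell by 0.97 ± 0.14 to gd12 (adjusted p = 0.000126), by 0.79 ± 0.16 to gd14 (adjusted p = 0.00272) and by 1.01 ± 0.16 from gd18 to pnd2 (adjusted p = 0.0016). In the last step it was 1 of only 3 Hox genes called, and its call held under all 17 alternatives. A second probe set (1427361_at) read 1468 ± 145 at gd11 and 291 ± 49.0 at pnd2 and was called lower from gd11 to gd12 and from gd11 to pnd2. The third (1427454_at), at 137 ± 38.8 and 88.3 ± 34.7, was called in no comparison. Hoxc8, a gene of thoracic and limb motor neurons, changed in like manner up to gd14: 2356 ± 379 at gd11, 1290 ± 529 at gd12 and 549 ± 79.3 at gd14. At pnd2 it was at 438 ± 51.4, a fall of 2.36 ± 0.21 in all (adjusted p = 2.94e-08). Its step from gd18, at 631 ± 110, to pnd2 was not called (-0.50 ± 0.23, adjusted p = 0.273).

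Hoxd8, Hoxd9 and Hoxd10 did not take this course. Hoxd8, which acts in trunk and hindlimb patterning, is the 1 Hox gene called higher at pnd2 than at gd11, whereas Hoxd9, Hoxd10 and the posterior genes other than Hoxa9 and Hoxb13 were picked for their full values after these were seen. Hoxd8 (1431099_at) read 1984, 1130, 1734, 1623 and 1354 at gd11, 1472, 1580 and 1674 at gd12, 1608, 1572 and 1901 at gd14, 2369, 1880 and 2350 at gd16, 2406, 2335 and 3074 at gd18, and 1961, 2011 and 2306 at pnd2. The pnd2 arrays overlapped those of gd11 through replicate 16 alone. The rise was 0.44 ± 0.14 (adjusted p = 0.0244), no step between neighbouring stages was called, and the highest stage was gd18. The rise was not called in a fit of those stages alone (adjusted p = 0.0776). It also lost its call without gd11 replicate 17, gd11 replicate 20 or pnd2 replicate 3 (adjusted p = 0.0611, 0.0545 and 0.119, with 0.00447 to 0.119 over 19 alternatives). The second Hoxd8 probe set (1433638_s_at), at 812 ± 147 and 739 ± 130, changed by -0.13 ± 0.15 and was not called. In neither probe set was any fall from gd11 to gd14 seen (changes to gd12 of 0.03 ± 0.14 and -0.07 ± 0.15).

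Hoxd9 (1419126_at), which acts in hindlimb, lumbar and sacral patterning, read 3779, 2520, 1781, 1208 and 1560 at gd11 and 2938, 2842 and 3019 at gd12. Its later arrays lay between 2431 and 3881, with means of 3027 ± 408 at gd14, 3471 ± 182 at gd16, 3502 ± 343 at gd18 and 2856 ± 375 at pnd2. Over all arrays the change to gd12 was 0.55 ± 0.23 and was not called (adjusted p = 0.127). The 2 highest gd11 values were those of replicates 16 and 17, and without them the 3 remaining gd11 arrays lay below all later arrays. Leaving out replicate 16 alone gave called rises of 0.77 ± 0.16 at gd12 and 0.73 ± 0.16 at pnd2 (adjusted p = 0.00373 and 0.00155). Without both, Hoxd9 was called higher at gd12 (0.96 ± 0.13, adjusted p = 6.23e-05) and at pnd2 (0.91 ± 0.13, adjusted p = 1.52e-05), and over the 6 alternatives that left out early arrays the adjusted p ran from 6.23e-05 to 0.403 and from 1.52e-05 to 0.129.

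Hoxd10 (1418606_at), a gene of the hindlimb and lumbar cord, was uneven at gd11. It read 2872, 295, 155, 21.7 and 291 there, but 895, 511 and 676 at gd12, 783, 677 and 877 at gd14, 824, 771 and 646 at gd16, 714, 707 and 730 at gd18, and 650, 749 and 516 at pnd2. From gd12 on the arrays kept within 511 to 895, while 4 of the 5 gd11 arrays lay below that range and replicate 16 above it. The fit of all arrays called no change (1.24 ± 0.73 to gd12, adjusted p = 0.299). Without gd11 replicate 16 it called a rise of 2.07 ± 0.43 (adjusted p = 0.0034). Leaving out replicate 17 as well, the gene was called higher at gd12 (2.38 ± 0.42, adjusted p = 0.000882) and at pnd2 (2.28 ± 0.42, adjusted p = 0.000267), with adjusted p from 0.000882 to 0.613 and from 0.000267 to 0.288 over the 6 alternatives. Hoxd11, which acts in kidney and forelimb with its paralogues, read 452 in gd11 replicate 16 and at most 63.4 in the other gd11 arrays. Its gd12 arrays read 209, 66.5 and 4.41, and its stage means from gd12 on were 71.6 to 93.4, just above background. No change of Hoxd11 was called with all arrays. Without gd11 replicate 16 it was called higher at pnd2 than at gd11 (adjusted p from 0.0405 to 0.529 over the 6 alternatives).

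Of the 9 posterior genes of the other clusters 5 were called lower at pnd2 than at gd11, and several had high values in few gd11 arrays. Hoxa9 (1455626_at), known in blood cell growth and in the genital tract, read 7633 and 6908 in gd11 replicates 16 and 17 and 2282, 2377 and 2415 in replicates 18 to 20. It read 1819, 1232 and 385 at gd12 and 168, 196 and 133 at gd14. Later values were 153, 144 and 234 at gd16, 106, 192 and 146 at gd18, and 107, 78.7 and 110 at pnd2. The early stages were separate and the fall to pnd2, 4.95 ± 0.43 (adjusted p = 1.99e-08), was the deepest of all Hox genes. The change was -4.31 when gd11 replicates 16 and 17 were left out. The step to gd12 (-1.93 ± 0.43, adjusted p = 0.00495) lost its call when gd12 replicate 15 was left out (-1.29, adjusted p = 0.0612) or in a fit of those stages alone (adjusted p = 0.0783, with 0.00124 to 0.0783 over 19 alternatives). From gd12 to gd14 Hoxa9 fell by 2.40 ± 0.48 (adjusted p = 0.00273), and its second probe set, at -0.88 ± 0.40, was not called there (adjusted p = 0.185).

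Hoxb9 and Hoxc9, thoracic genes, stood at 1180, 436, 142, 109 and 158 and at 1052, 1185, 732, 257 and 446 in the gd11 arrays. They were called lower at gd12, by 2.48 ± 0.54 and 2.03 ± 0.53. Without gd11 replicates 16 and 17 Hoxb9 changed by -1.59 (adjusted p = 0.00709, with 0.00314 to 0.0759 over 6 alternatives) and Hoxc9 by -1.51, which was not called (adjusted p = 0.079, with 0.00101 to 0.15). From gd11 to pnd2 the changes were -1.80 ± 0.54 and -2.34 ± 0.53, both called. For Hoxb9 this change was -0.90 and not called without those 2 arrays (adjusted p = 0.0694, with 0.0151 to 0.0694 over 6 alternatives). Hoxa10, needed in uterus and testis descent, read 1502, 460, 191, 38.9 and 190 at gd11, and Hoxc10 read 3435, 2512, 475, 130 and 459. Neither was called at gd12 (-0.87 ± 0.66 and -1.48 ± 0.65), and without those 2 arrays the changes were 0.18 and -0.22. At pnd2 both were called lower than at gd11, also without them (-1.81, adjusted p = 0.00577, and -1.29, adjusted p = 0.00907, with 0.00143 to 0.00577 and 0.00474 to 0.00907 over the alternatives). Hoxa11, a kidney and uterus gene, read 864 in gd11 replicate 16 and 7.20 to 103 in the other gd11 arrays, with no call.

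The most posterior genes were dim throughout. Hoxb13, Hoxc13, Hoxd12 and Hoxd13 had every stage mean near background, and Hoxa13 every mean but that of gd14, 75.8 ± 38.0. Hoxb13 (1419576_at), a gene of the tail bud and prostate, read 15.3, 11.7, 9.72, 1.84 and 5.30 at gd11, 11.3, 4.33 and 10.2 at gd12, 40.2, 7.39 and 39.3 at gd14, 3.77, 6.87 and 37.9 at gd16, 95.7, 70.7 and 16.5 at gd18, and 6.03, 5.48 and 8.69 at pnd2. It was called lower at pnd2 than at gd18 (-1.37 ± 0.38, adjusted p = 0.0495), a call lost in 10 of 16 alternatives (adjusted p = 0.0155 to 0.195).

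In all, 11 of the 33 genes had several probe sets, and those not yet named moved as follows. The second probe set of Hoxb4 (1451761_at) changed by -1.60 ± 0.43 to gd12 and by -2.48 ± 0.43 to pnd2, both called like those of the first. Hoxc5 had 2 further probe sets (1450832_at and 1456301_at), called lower at gd12 (-1.58 ± 0.48 and -1.80 ± 0.54) and at pnd2 (-3.79 ± 0.48 and -3.28 ± 0.54) but not from gd12 to gd14 (adjusted p = 0.0901 and 0.247). Unlike the brightest probe set of Hoxc5, both were near background at pnd2, at 49.6 ± 15.7 and 17.9 ± 9.13. The second probe sets of Hoxa4, Hoxa10 and Hoxd13 were near background at every stage.

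Because genes with the same paralogue number descend from 1 ancestral gene, the change of each cluster D gene was set against that of its relatives. Over the 13 such pairs, the difference between the 2 genes' changes from gd11 to pnd2 was tested with a two-sided exact permutation test over the 5 gd11 and 3 pnd2 arrays, a comparison added after the values were seen. A difference is the change of the cluster D gene minus that of its relative, on the log2 scale. For Hoxd9 it was 5.45 against Hoxa9, 2.84 against Hoxc9 and 2.30 against Hoxb9, where the relatives fell. For Hoxd10 it was 4.00 against Hoxa10 and 3.70 against Hoxc10, and for Hoxd8 2.80 against Hoxc8. Without gd11 replicates 16 and 17 these 6 differences were 5.22, 2.73, 1.81, 4.09, 3.57 and 2.93. In 9 of the 13 pairs, those 6 with Hoxd3 against Hoxa3 and Hoxb3 and Hoxd11 against Hoxa11, the arrays of the stages did not overlap in the difference. Each of the 9 had an exact permutation p = 0.0357. This two-sided p doubles the smaller tail over the 56 regroupings of the arrays, and 0.0357 is the smallest it can give. After adjustment over the 13 pairs it was 0.0516, so no pair passed the threshold. Hoxd1 against Hoxb1 (-1.06) and Hoxd13 against Hoxa13, Hoxb13 and Hoxc13 (-0.48, -0.42 and -0.45) overlapped.

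To put sequence beside the contrast, the windows upstream of the start sites of a pair that stayed bright, Hoxd8 and Hoxd9, and of a pair that fell deeply, Hoxa5 and Hoxa9, are printed from RefSeq (assembly GRCm38.p6). Each holds the 250 bases before the annotated start, 5′ to 3′ on the gene's strand. Capitals mark matches on either strand to CCAAT, the CCAAT box, and GGGCGG, the GC box. No match to TGATNNAT, a composite site of Pbx and Hox proteins, or to TATAAA, the TATA box, lay in these 4 windows.
Hoxd8, chr2:74704365-74704614, plus strand: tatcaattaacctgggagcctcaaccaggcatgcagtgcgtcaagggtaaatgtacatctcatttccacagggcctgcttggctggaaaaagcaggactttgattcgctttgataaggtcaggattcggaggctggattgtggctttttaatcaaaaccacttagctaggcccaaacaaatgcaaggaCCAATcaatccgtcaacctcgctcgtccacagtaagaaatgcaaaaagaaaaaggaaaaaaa
Hoxd9, chr2:74697513-74697762, plus strand: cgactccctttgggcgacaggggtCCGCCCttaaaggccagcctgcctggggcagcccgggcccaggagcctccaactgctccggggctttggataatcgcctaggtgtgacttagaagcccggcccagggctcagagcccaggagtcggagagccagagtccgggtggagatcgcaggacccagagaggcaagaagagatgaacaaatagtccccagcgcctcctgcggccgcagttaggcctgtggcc
Hoxa5, chr6:52204588-52204837, minus strand: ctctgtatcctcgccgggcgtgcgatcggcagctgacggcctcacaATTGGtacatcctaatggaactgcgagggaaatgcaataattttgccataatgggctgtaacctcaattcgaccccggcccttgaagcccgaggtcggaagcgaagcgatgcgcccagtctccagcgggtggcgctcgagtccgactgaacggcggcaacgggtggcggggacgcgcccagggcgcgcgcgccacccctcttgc
Hoxa9, chr6:52227371-52227620, minus strand: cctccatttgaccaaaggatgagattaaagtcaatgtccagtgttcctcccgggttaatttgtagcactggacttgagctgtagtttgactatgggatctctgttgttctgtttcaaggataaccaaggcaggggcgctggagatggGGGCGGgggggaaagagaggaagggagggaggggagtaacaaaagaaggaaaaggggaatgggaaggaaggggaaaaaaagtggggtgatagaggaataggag
Hoxd8 and Hoxa5 thus each hold 1 CCAAT match, 62 and 204 bases before the start as counted from the match's left end, and Hoxd9 and Hoxa9 each 1 GGGCGG match, 226 and 103 bases before it. The letters searched did not separate the genes that stayed from those that fell. RefSeq windows were at hand for 19 of the 33 genes, 21 windows in all. CCAAT was found in 11 of the 21 (52.4%) and in 33.8% of 32851 mouse promoter windows of this length, GGGCGG in 8 (38.1%) and in 32.7%, TATAAA in 2 (9.52%) and in 12.4%, and TGATNNAT in 3 (14.3%), of Hoxa2, Hoxb1 and Hoxd11, and in 7.68%. A match is a description of these letters, and overlaps between motifs were allowed.

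Taken step by step, most of the called falls lay in 2 intervals. From gd11 to gd12, 17 of the 33 genes were called lower and none higher, against 7.05% and 8.10% of all genes, or 24 of the 48 member probe sets against 6.0% (none higher, against 7.39%). Of cluster A 5 genes were called, of B 6, of C 5 and of D 1, Hoxd1. In 15 genes the gd12 range lay below the gd11 range, as in 8.29% of all genes, and in none above it (8.88%). From gd12 to gd14, 13 genes were called lower and none higher (4.85% and 7.90% of all genes), or 15 of the 48 probe sets (4.50%, with none higher against 6.12%). These were 5 of cluster A, 4 of B, 4 of C and none of D. In 17 genes the gd14 range lay below the gd12 range, as in 13.9% of all genes, and in none above it (18.1%).

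Later steps held few calls among the members. From gd14 to gd16 and from gd16 to gd18 limma called none of the 48 probe sets in either direction, where 2.46% and 1.43% of all probe sets were called lower and 2.35% and 0.684% higher. Nor was any of the 33 genes called, against 3.09% and 1.93% of all genes lower and 3.28% and 0.874% higher. At an unadjusted p under 0.05, 1 of the 48 probe sets was lower and 5 higher in the first of these steps, and none lower and 1 higher in the second. No share over all probe sets stands beside these unadjusted counts, so they are not read as a result about the members. The median change of the 33 genes from gd14 to gd16 was 0.20, and for 8 genes the gd16 range lay above the gd14 range, as in 19.4% of all genes, and for none below it (14.1%). From gd16 to gd18 the ranges were separate in 2 genes downward and 2 upward, where 11.9% and 13% of all genes were. A fit of those stages alone called Hoxc4 and Hoxc8 higher at gd16. From gd18 to pnd2, 3 of the 48 probe sets and 3 of the 33 genes were called lower, Hoxa3, Hoxb13 and Hoxc6, against 2.38% of all probe sets and 3.23% of all genes, and none higher (1.30% and 1.41%). At an unadjusted p under 0.05, 13 of the 48 probe sets were lower in this step and none higher, and 28 of the 33 gene changes were below 0. These counts too have no share over all probe sets or genes beside them, and the median change of all genes was itself below 0. In that step the pnd2 range lay below the gd18 range in 15 of the 33 genes, as in 18.9% of all genes (and in none above it, against 10.4%), and the median change was -0.47 against -0.08.

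**Figure D3:**
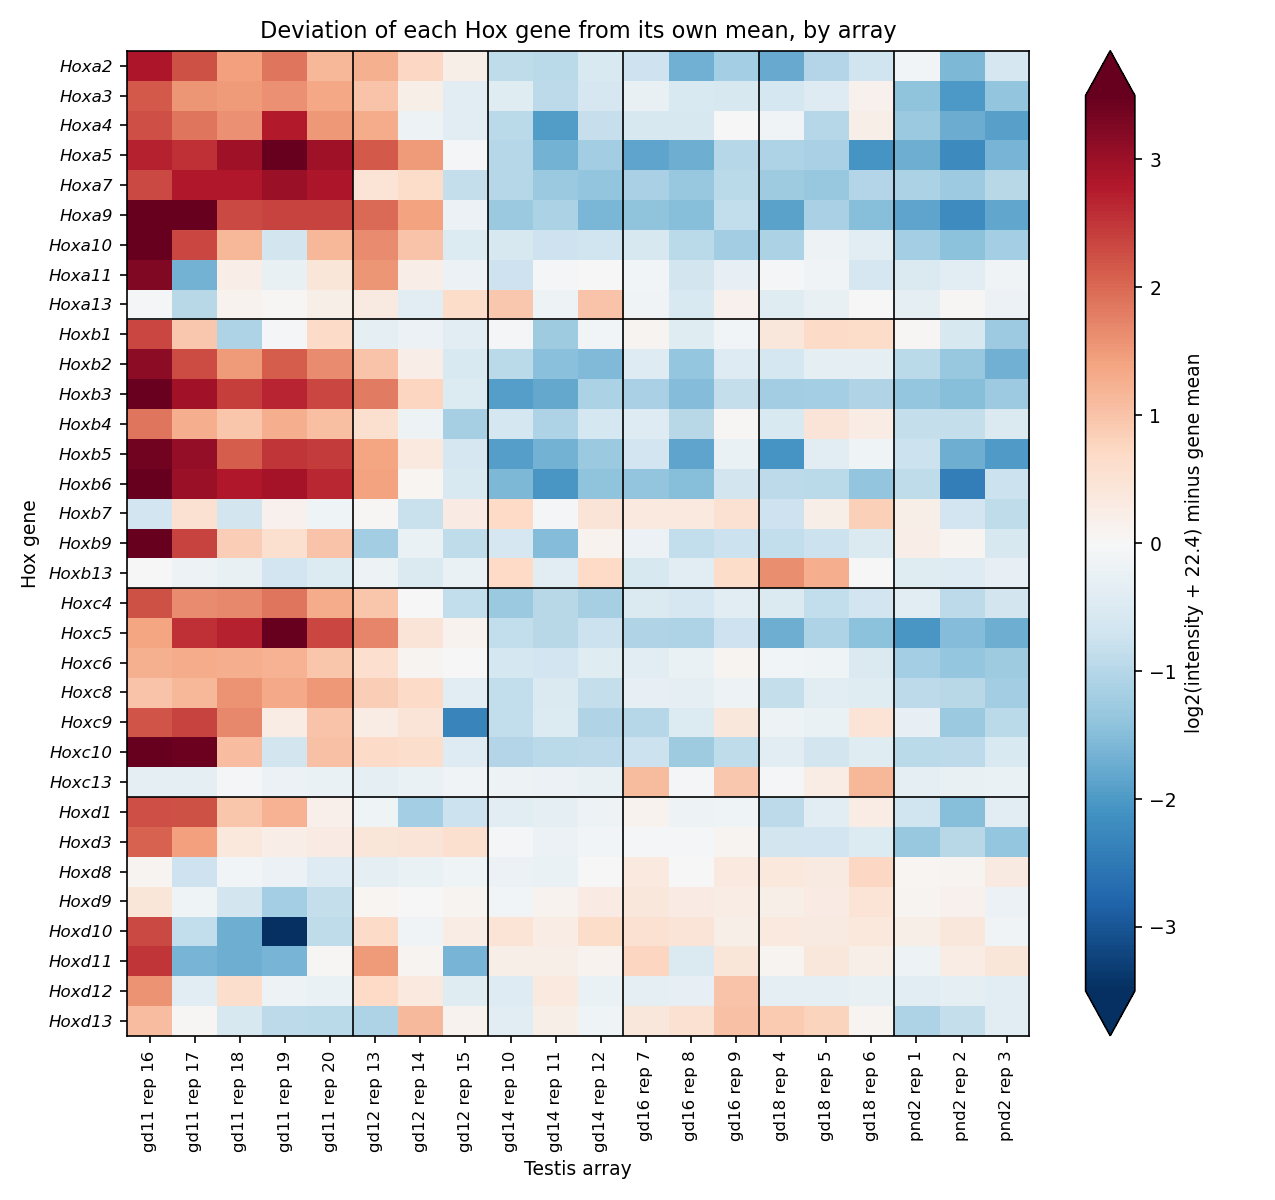
Deviation of each of the 33 Hox genes (rows, by cluster and paralogue number) from its own mean of log2(intensity + 22.4) on each testis array (columns, by stage and replicate), in red above and blue below the mean, with colours ending at ±3.5. In gd11 replicate 16 the posterior genes Hoxa10, Hoxa11, Hoxb9, Hoxd10 and Hoxd11 stand above the other gd11 arrays, and at gd12 replicate 13 stands above replicate 15 in most genes of clusters A, B and C.

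Arrays of the same stage differed in Hox genes together. In 17 of the 33 Hox genes (51.5%) gd11 replicates 16 and 17 held the 2 highest gd11 values, against 18.8% of all genes. The same arrays held the highest neural and cartilage sums of gd11 and the lowest mesonephric and stromal sums. Without gd11 replicates 16 and 17, 16 Hox genes were called lower at gd12 and 2 higher, Hoxd9 and Hoxd10. Of the 17 genes called with all arrays only Hoxc9 lost its call. At gd12, replicate 13 was the highest and replicate 15 the lowest in 19 of the 33 genes (57.6%), against 17.8% of all genes, and in 12 of the 13 genes called lower at gd14. Replicate 13 also held the highest neural and adrenal sums of gd12 and the lowest germ cell sum. Without it 8 of the 48 probe sets were called lower at gd14, in place of 15. Without replicates 13 and 14, which leaves 1 gd12 array assumed to vary like the other stages, none was, while 20 were called lower at gd12 than at gd11. Without gd12 replicate 15 the count from gd11 to gd12 went from 24 to 15. How much of the fall lay before gd12 and how much after it thus depended on which gd12 pool was used, whereas the comparison of pnd2 with gd11 called 29 to 31 probe sets lower with any 1 array of those stages left out.

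**Figure D4:**
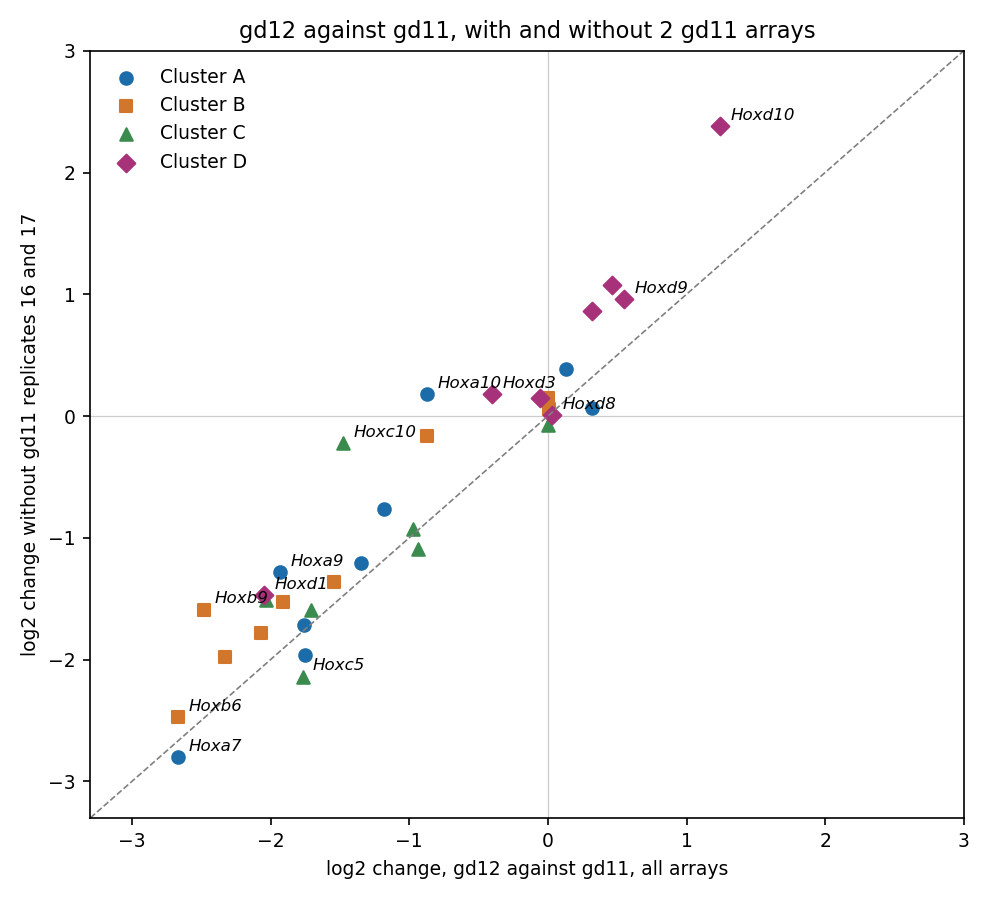
Change on the log2 scale of the 33 Hox genes from gd11 to gd12 with all arrays (horizontal axis) and without gd11 replicates 16 and 17 (vertical axis), with colour and shape for the cluster and a dashed line where both are equal. Hoxa7 and Hoxb6 lie near the line, Hoxb9 and Hoxc10 lie above it with smaller falls, and Hoxa10 moves from -0.87 to 0.18. Hoxd9 and Hoxd10 move from 0.55 and 1.24 to 0.96 and 2.38.

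The genes that act with Hox proteins or on their clusters were taken from lists of known members, each gene by its brightest probe set. Over all 18193 genes, 7.05% were called lower and 8.10% higher from gd11 to gd12, and 18.7% lower and 18.5% higher from gd11 to pnd2. Of 9 TALE cofactors 8 were measured. From gd11 to gd12, 5 were called lower and none higher, and from gd11 to pnd2, 6 lower and 1 higher (median change of -1.18). Meis2, a cofactor of limb and stroma, read 4292, 3410, 3478, 3774 and 4788 at gd11, 3307, 2057 and 1208 at gd12, and 1033, 947 and 1003 at gd14. By pnd2 it was at 393 ± 50.6, a change of -3.25 (adjusted p = 3.54e-10). Meis1, a partner of Hoxa9 in blood cells, fell by 2.32 from 3469 ± 579 at gd11 to 673 ± 66.5 at pnd2 (adjusted p = 3.53e-09). In both, as in the Hox genes, gd12 replicate 13 was highest and replicate 15 lowest, which held for 5 of the 8 cofactors. Pknox2 rose by 0.39 (adjusted p = 0.0471), and Pbx4 was near background at every stage.

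Of 17 regulators of the Hox clusters 16 were measured, with 3 called lower and 1 higher from gd11 to gd12 and 6 lower and 4 higher from gd11 to pnd2, where 7.05% and 8.10%, and 18.7% and 18.5%, of all genes were. Rarb, a retinoic acid receptor that is itself switched on by retinoic acid, went from 1227 ± 297 at gd11 to 326 ± 201 at gd12, 89.9 ± 19.2 at gd14 and 61.6 ± 1.76 at pnd2 (-3.86, adjusted p = 4.92e-09). Ezh2, the histone methyltransferase of a Polycomb complex, fell by 1.29 from 6096 ± 1146 to 2439 ± 6.89 (adjusted p = 2.57e-08). Egr2, which switches on Hoxb2 in the hindbrain, rose by 3.88, from 16.9 ± 16.5 to 535 ± 167 (adjusted p = 2.33e-08), with its highest level at pnd2. Rara, another retinoic acid receptor, rose by 1.33 from 267 ± 86.0 to 684 ± 51.5 (adjusted p = 6.44e-06). Cdx1, Cdx2 and Cdx4, which open Hox clusters in the early embryo, were near background at every stage.

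Non-coding genes inside the clusters were covered by 3 of 14 listed. Hoxb5os, on the strand opposite Hoxb5, went from 2134 ± 1221 at gd11 to 242 ± 130 at gd12 and 60.1 ± 14.9 at gd14, and changed by -4.39 from gd11 to pnd2 (adjusted p = 3.57e-08). Hoxd3os1, opposite Hoxd3, read 2039 ± 723, 2672 ± 176 and 1527 ± 81.6 at the same stages and 904 ± 154 at pnd2 (-1.10, adjusted p = 0.000341), with no fall called at gd12 (0.46, adjusted p = 0.164). Hoxa11os was not called. Of 14 genes that flank the clusters 12 were measured. Among them 3 were called lower from gd11 to gd12 (7.05% of all genes) and 5 lower and none higher to pnd2 (18.7% and 18.5%), with a median of -0.57. Smug1, a DNA repair gene, fell by 1.20 and Skap2, a signalling adaptor, by 0.93 (adjusted p = 9.37e-07 and 1.27e-05). Mtx2 and Lnpk, neighbours of cluster D, changed by -0.33 and -0.54.

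Of 14 listed homeobox genes outside the clusters 11 were measured. From gd11 to gd12, 2 were called lower and 1 higher (7.05% and 8.10% of all genes), and from gd11 to pnd2, 6 lower and none higher (18.7% and 18.5%). Pou3f3, a neural and kidney gene, fell by 4.71 from 1963 ± 1339 to 41.7 ± 16.4 (adjusted p = 2.75e-08). Emx2, needed for the urogenital tract and early gonad, read 2077 ± 1073 at gd11, 1753 ± 63.8 at gd12, 755 ± 101 at gd14 and 122 ± 30.8 at pnd2 (-3.65, adjusted p = 1.64e-07). The 1 called higher at gd12 was Lhx9, a factor of the early gonad, at 2319 ± 984 and 4279 ± 997 (0.97, adjusted p = 0.0175).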

How the data were processed

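The values used were the intensities of the series table as deposited. They were made with GCOS, per the submitters' processing notes, with no version given. In each array their mean without the highest and lowest 2% was 500, so they were used without further normalization. Intensities were tested as log2(intensity + 22.4), where 22.4 is percentile 20 of the testis values, with no filter on low values. limma 3.58.1 in R 4.3.3 was fitted to 6 stage means over all 34945 probe sets with 1 gene symbol (932 had several and 9160 none), with an intensity trend. p-values were adjusted by Benjamini-Hochberg over all probe sets within a comparison. The fit was tested on simulated data: for gd12 against gd11, 73.1% of probe sets changed 2-fold were recovered among 34945. The changed probe sets were drawn only from those with a mean above background, and each probe set varied independently. That share therefore does not cover dim genes, nor arrays that shift many genes together. Named genes were the 2 of each cluster with the largest F statistic, those with the largest called fall or rise in a comparison and, in each other list, the 2 genes with the largest called changes each way. Members and lists were chosen with earlier results of these data known. Separate litters or extractions are not stated, so p-values measure the spread between these samples. All arrays carry 1 date in their titles, and no batch could be tested. The number of arrays limits the precision. Promoters came from RefSeq (GRCm38.p6).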

Additional observations from a re-analysis of the deposited data

Results flagged for a closer look

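Among the 33 Hox genes, 2 had a gd11 array far from the other 4 on the log2 scale of the fit. The gap from that array to the nearest of the other 4 was above 0.71 of the whole range, the limit for 5 samples. Hoxc6 read 1375 in gd11 replicate 20 (gap 0.784 of the range) and 1644 to 1727 in the others, and Hoxa13 read 9.09 in gd11 replicate 17 (0.765), near background as in the others. Chance gives about 1 such group in 20. On the intensities themselves, gd11 replicate 16 also stood far above the other gd11 arrays in Hoxd10, Hoxa11 and Hoxd11, among others. It read 2872, 864 and 452 there, against at most 295, 103 and 63.4. The limit was not applied on that scale. In the array of whole newborns, which entered no comparison, 3 posterior genes that were near background at every testis stage were above the limit of 71.6: Hoxb13 read 75.8, Hoxc13 114.4 and Hoxd13 126.6. This is 1 pool with no replicate.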

How the results depend on the processing

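No paired analysis was possible because replicate numbers run on over the series and no 2 stages share one. The text's counts of Hox probe sets were recomputed under each alternative, and no result reversed. Of 242 recomputed counts 216 stayed within 1.5 times the reported one, and of 1266 recomputed gene changes 1223 kept their call, 32 lost it and 11 gained one. In a fit of the compared stages alone, 14 were called lower at gd12 than gd11, 2 higher at gd16 than gd14 and 0 higher at pnd2 than gd11. With array weights, 1 was called higher at gd12, 1 higher at gd16, 5 lower at pnd2 than gd18 and 3 higher at pnd2 than gd11. Without gd11 replicates 16 and 17 the counts were 2 higher at gd12, 1 lower at gd18 than gd16, 5 lower at pnd2 than gd18 and 3 higher at pnd2 than gd11. Leaving out gd12 replicate 13 too, an alternative added after seeing the data, gave 3, 1, 7 and 4. Without gd12 replicates 13 and 14, 0 were called lower at gd14. With 1 array of the stages compared left out at a time, counts of probe sets ran from 15 to 25 lower and 0 to 2 higher at gd12, 8 to 16 lower at gd14, 0 to 1 higher at gd16 and at gd18, 1 to 2 lower at pnd2 than gd18, and 0 to 4 higher at pnd2 than gd11. The cause was not tested. For genes near background, the signal over background limits what changes can be seen.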
